A study of Mus musculus with 2 samples.

Results

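Axon guidance ligands and receptors were followed in the optic nerve at postnatal day 12 (P12) of control and *Tcf7l2*ΔHMG mice. The genes were chosen by symbol alone, under a rule set with earlier results of these data known. The rule took every class 3 to 7 semaphorin, plexin, neuropilin, ephrin, Eph receptor, Slit, Robo, netrin (*Ntn1*, *Ntn3* and *Ntn4*), *Unc5* receptor and *Dcc* listed in both deposited tables. This gave 68 genes, 34 ligands and 34 receptors in 12 families, of 23951 gene symbols found in both tables. Control mice carried 1 floxed *Tcf7l2* allele (labelled c/+) and mutants 2 (labelled c/c and called cKO), both with OLig1-cre. In the mutants the Cre removed exon 11, with the HMG domain by which Tcf7l2 binds DNA, in cells of the oligodendrocyte (OL) lineage, so a shortened Tcf7l2 can still be made. The control animals carry the same Cre and a floxed allele. RNA was taken from optic nerves, 1 library per genotype, and the number of animals per library is not given in the sources used here. With 1 library per genotype there is no measure of variation between animals, so no difference below has a replicate check and none was tested.

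Guidance cues act as ligands that are secreted or held on the membrane and steer growing axons, migrating glia and vessels by attraction or repulsion. Class 3 semaphorins are secreted and mostly act through neuropilin and plexin-A complexes, whereas class 4 to 7 semaphorins are membrane bound (or lipid anchored) and bind plexins directly. Ephrin-A ligands are lipid anchored and bind mainly EphA receptors, and ephrin-B ligands span the membrane and bind mainly EphB receptors. Slits repel through Robos, and netrins attract through Dcc and repel through Unc5 receptors. In white matter several of these cues are made by OLs themselves, among them *Sema4d* and *Efnb3*, which are known as inhibitors of axon growth in myelin. Others belong to vessels, meninges or neurons, and the optic nerve holds axons of retinal ganglion cells but not their cell bodies.

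Levels are given as FPKM, the fragments of a gene scaled to its transcript length in kilobases and to library depth, which Cufflinks computed with an interval for each value. Levels of different genes in a library can thus be set side by side. The bounds of the intervals of short rows gave a depth of 27623000 fragments for the control library and 39938000 for the mutant library, at which 3 fragments on 1 kb correspond to 0.109 and 0.0751 FPKM. *Tcf7l2* itself stood at 17.8 FPKM in control nerves and 14.6 FPKM in mutant nerves (log2 ratio −0.28). This value covers the whole gene and does not check the loss of exon 11. The defining markers of OLs were at high levels in both libraries, with *Mbp* at 16990 and 11646 FPKM. Of 10 listed OL markers, 7 were lower in the mutant by over 1.5-fold (median log2 ratio −0.94). Of all genes with at least 1 FPKM in at least 1 library, 8.52% were lower by that much. In bulk RNA, fewer cells of a type and less RNA per cell cannot be told apart.

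Of the 68 genes, 62 reached 1 FPKM in the control, the mutant or both, and these were compared. The other 6 were *Epha1*, *Epha6*, *Epha10*, *Robo3*, *Dcc* and *Unc5d*. Mutant and control were compared as the log2 ratio of FPKM + 0.1, which understates the change of low genes, and a gene was counted as higher or lower past a fold change of 1.5. By this rule 17 genes (27.4%) were higher in the mutant, compared with 15.4% of all 14199 genes compared, and 11 (17.7%) were lower, compared with 8.52%. The Cufflinks intervals of control and mutant were apart for 44 of the 62 genes, beside 52.4% of all genes compared. Counting only genes past the cutoff with intervals apart left all 17 higher and 11 lower genes, beside 13.6% and 7.42% of all genes. For 10 of the 62 genes only 1 library reached 1 FPKM, so those genes had to differ to be compared. Among the 52 genes with at least 1 FPKM in both libraries, 10 were higher and 9 lower, beside 12.2% and 7.22% of all such genes. With no such filter 19 of the 68 were higher and 11 lower, beside 13.4% and 6.89%. Past a fold change of 2, 7 were higher and 6 lower, beside 6.87% and 3.68%. Without any cutoff 45 of the 68 had a higher and 22 a lower value, with the 6 genes under 1 FPKM counted. Of all genes compared, which leaves out genes that low, 54.6% had a higher and 45.4% a lower value. The median log2 ratio was 0.17 over the 62 genes and 0.19 over all 68, and it was 0.05 over all genes compared.

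The scale of the libraries sets where 0 lies. Rows without a gene name held 70.7% of all FPKM in the control library and 80.7% in the mutant one, and when all rows of each library were rescaled to the same sum, the median of all genes moved to a log2 ratio of −0.61. On that scale 3 of the 62 genes were higher and 27 lower, beside 640 and 7398 of all genes. Centring on the median of all genes gave 16 higher and 13 lower, beside 1965 and 1389 of all 14199 genes. Scaling to the 75th percentile also gave 16 and 13, beside 1962 and 1397 of all genes. Directions below are on the deposited scale and thus relative to a median of all genes near 0.

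Promoter sequences are shown for the 5 genes past the cutoff whose window from 250 bases before to 50 bases after the RefSeq start site held a short TCF-type or Sox-type motif, since *Tcf7l2* was the gene altered here and Sox factors, such as Sox10 of OLs, also bind DNA through an HMG domain. The motifs searched on both strands were TCAAAG (a core of TCF/LEF sites) and ACAAAG (a core bound by Sox factors), which share the letters CAAAG but cannot match at the same place. Windows were found in RefSeq (GRCm38.p6) for 58 of the 68 genes. In the lines that follow capitals mark the match, sequences run 5′ to 3′ on the strand of the gene, and they end before the start site.
Sema3e, chr5:14025123-14025198, plus strand: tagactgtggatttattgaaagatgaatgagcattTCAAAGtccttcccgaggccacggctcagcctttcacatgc
Robo4, chr9:37401905-37401971, plus strand: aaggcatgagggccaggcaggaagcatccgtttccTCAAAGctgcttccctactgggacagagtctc
Sema4f, chr6:82939770-82939810, minus strand: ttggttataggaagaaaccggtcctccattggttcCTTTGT
Plxnb3, chrX:73756906-73756981, plus strand: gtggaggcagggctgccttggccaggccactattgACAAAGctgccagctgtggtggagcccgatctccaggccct
Sema3a, chr5:13396614-13396689, plus strand: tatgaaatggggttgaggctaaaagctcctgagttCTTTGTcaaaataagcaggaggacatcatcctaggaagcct
TCAAAG was found in 5 of 74 windows of these genes (6.8%), beside 16.0% of all 32851 windows, and ACAAAG in 10 of 74 (13.5%), beside 18.71%. The longer ATCAAAG was in 1 of 74 windows, that of *Nrp2*, beside 3.73%. TCAAAG was in the windows of 2 of 11 genes lower in the mutant (*Sema3e* and *Robo4*) and of 0 of 13 higher genes with a window. ACAAAG was in those of 2 lower genes and 1 higher gene. A match of so few letters is a description of the window and not a binding site.

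**Figure D1:**
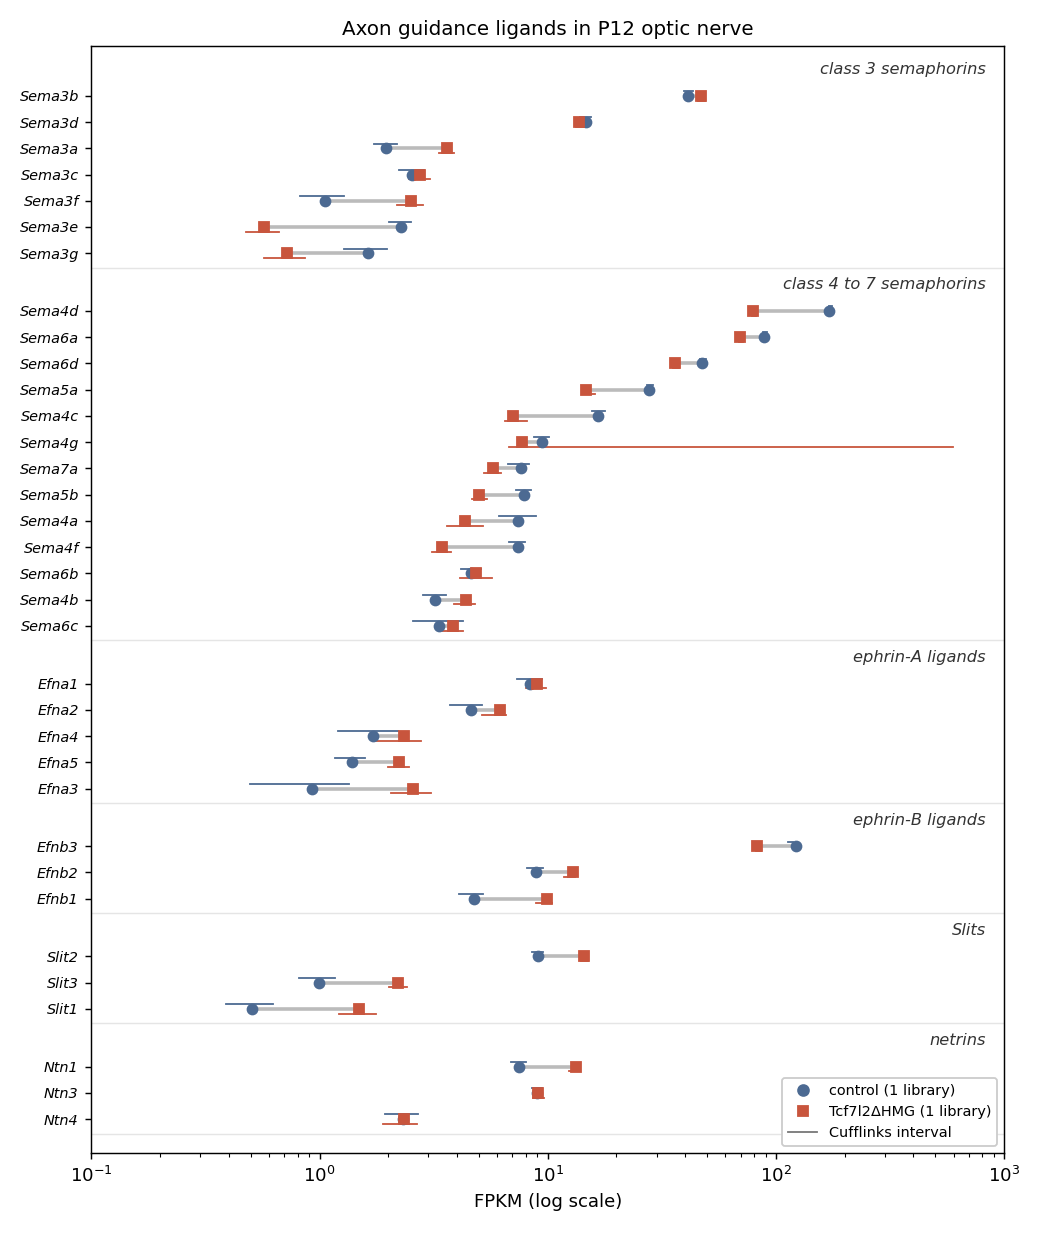
FPKM (log axis) of the 34 ligands in the control library (blue circles) and the Tcf7l2ΔHMG library (red squares), by family, with the Cufflinks interval of each value as a thin line. On the deposited scale 10 of 13 class 4 to 7 semaphorins lie lower in the mutant and all 3 Slits lie higher. Rescaling all rows to a common sum puts *Slit2* just below 0 on the log2 scale. The interval of *Sema4g* in the mutant, which runs to 599 FPKM, is drawn as deposited.

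Membrane-bound semaphorins held the highest level of all 68 genes in the control and the largest difference in summed FPKM between the libraries. Over the 13 class 4 to 7 genes the sum was 402.6 FPKM in control nerves and 245.9 FPKM in mutant nerves, 61.1% of the control. A fold change of 1.5 was passed by 6 of 13 genes, all lower, and by none in the other direction (median log2 ratio −0.41, and −1.06 after rescaling all rows). Of all genes compared, 8.52% were lower and 15.4% higher. *Sema4d*, a ligand of plexin-B1 and plexin-B2 and the most abundant of the 68 in the control, was measured at 171.0 FPKM in control nerves and 79.2 FPKM in mutant nerves. It was thus 2.16-fold lower (log2 ratio −1.11), with intervals of 170.7 to 176.4 and 78.4 to 81.9. In the files it lies on chromosome 13 from 51778968 to 51889116 (mm9). *Sema4c*, a plexin-B2 ligand on chromosome 1 from 36605485 to 36615226, was at 16.7 FPKM in control nerves and 7.07 FPKM in mutant nerves, the lowest log2 ratio of the class (−1.23). In the mutant, unnamed rows within the spans of *Sema4d* and *Sema4c* reached 8.16 and 4.57 FPKM. The control had no unnamed row of at least 1 FPKM there, and the part of these rows in the values was not tested. *Sema4f* was at 7.37 and 3.44 FPKM (log2 ratio −1.08), and *Sema4a*, whose row takes in *Mir7011* in the mutant only, at 7.40 and 4.33 FPKM (log2 ratio −0.76). Both class 5 genes were past the cutoff as well. *Sema5a*, a thrombospondin repeat protein that binds plexin-B3 and repels retinal axons, was at 27.9 FPKM in control nerves and 14.8 FPKM in mutant nerves (log2 ratio −0.91). *Sema5b* was at 7.83 and 5.02 FPKM, a log2 ratio of −0.63 that lay just past the cutoff.

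No class 6 gene passed the cutoff, although *Sema6a* was next to *Sema4d* in level among the semaphorins. *Sema6a*, which binds plexin-A2 and plexin-A4, was at 88.8 FPKM in control nerves and 69.5 FPKM in mutant nerves (log2 ratio −0.35), and *Sema6d*, a plexin-A1 ligand, at 47.4 and 36.1 FPKM (log2 ratio −0.39). *Sema6b* and *Sema6c* were low, between 3.35 and 4.87 FPKM in both libraries, with overlapping intervals. *Sema4d* was 1.93 times as abundant as *Sema6a* in the control and 1.14 times in the mutant. *Sema7a*, the lipid-anchored ligand of plexin-C1 and integrins, was at 7.65 and 5.73 FPKM (log2 ratio −0.41). *Sema4b* was at 3.20 FPKM in control nerves and 4.38 FPKM in mutant nerves, the one class 4 gene with a higher value in the mutant (log2 ratio 0.44), though −0.21 after rescaling all rows. *Sema4g* was at 9.42 and 7.68 FPKM, but the mutant interval of 6.75 to 599 makes its value uncertain.

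The class 3 semaphorins, which are secreted, were split. *Sema3b* and *Sema3d* made up most of the class and differed little. *Sema3b* was at 41.1 FPKM in control nerves and 46.8 FPKM in mutant nerves (log2 ratio 0.19), and *Sema3d* at 14.8 and 13.8 FPKM (log2 ratio −0.10). Of the low members, 2 were lower and 2 higher past the cutoff, beside 8.52% and 15.4% of all genes compared. *Sema3e*, which binds plexin-D1 without a neuropilin, had a log2 ratio of −1.81 and is 1 of the lower genes with the TCAAAG match shown above, at 2.27 FPKM in control nerves and 0.573 FPKM in mutant nerves. From the depth and the longest transcript of the gene (GENCODE M21), these values stand for about 429 and 157 fragments. Its log2 ratio was the lowest of all 68 genes with a pseudocount of 0.1 but not with 1, where it was −1.05 and *Sema4c* (−1.13) and *Sema4d* (−1.10) were lower. *Sema3e* and *Sema3g* were compared only because the control reached 1 FPKM. *Sema3g*, a semaphorin of arterial endothelium, was at 1.62 and 0.719 FPKM, about 204 and 130 fragments (log2 ratio −1.07). In the other direction, *Sema3f*, the main repellent ligand of neuropilin-2, was at 1.06 FPKM in control nerves and 2.52 FPKM in mutant nerves (log2 ratio 1.18). *Sema3a*, the classical ligand of neuropilin-1, was at 1.95 and 3.61 FPKM (log2 ratio 0.86). *Sema3c* was at 2.55 and 2.76 FPKM, with overlapping intervals.

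**Figure D2:**
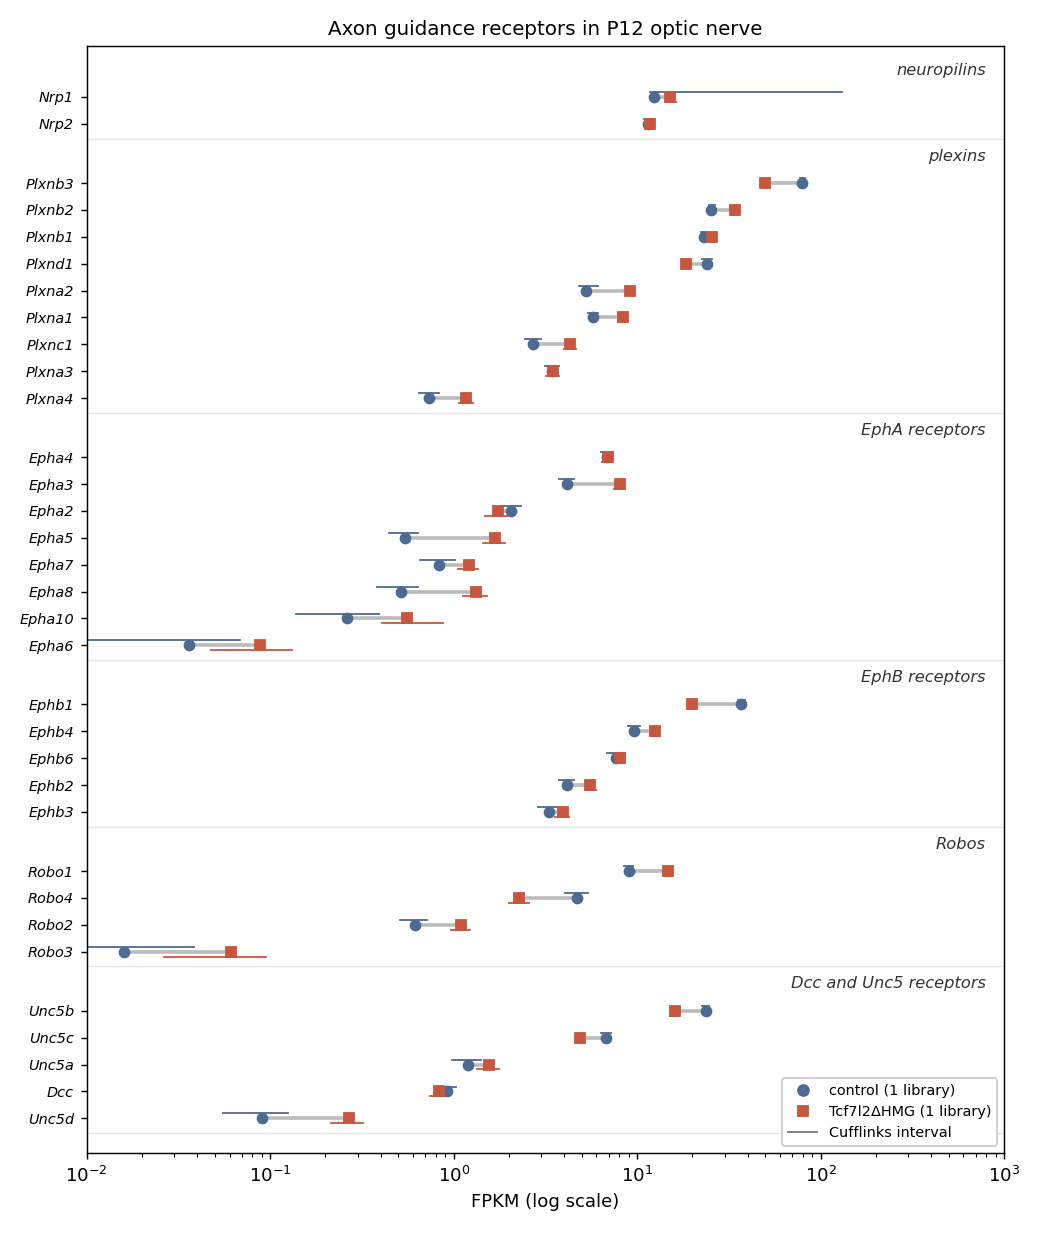
FPKM (log axis) of the receptors in the control library (blue circles) and the Tcf7l2ΔHMG library (red squares), by family, with Cufflinks intervals as thin lines that are cut at 0.01. *Epha1*, listed at 0 in both libraries, is not drawn. *Plxnb3*, *Ephb1* and *Robo4* are the 3 receptors lower in the mutant by over 1.5-fold.

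Among the receptors for semaphorins, 3 plexins were higher in the mutant and *Plxnb3* was lower (family median log2 ratio 0.43, but −0.24 after rescaling all rows). These 3 higher and 1 lower of 9 plexins stand beside 15.4% and 8.52% of all genes compared. *Plxnb3*, the plexin-B family member that is typical of OLs and binds Sema5a, was the most abundant receptor in both libraries, at 78.9 FPKM in control nerves and 49.8 FPKM in mutant nerves (log2 ratio −0.66). The files merge it with the overlapping gene *Srpk3* in 1 row, so fragments of both genes are in this value. *Plxnb1* and *Plxnb2*, which bind Sema4d, had higher values in the mutant, at 23.0 and 25.6 FPKM for *Plxnb1* (log2 ratio 0.15) and 25.3 and 34.1 FPKM for *Plxnb2* (log2 ratio 0.43). An unnamed row within the span of *Plxnb1* had 131.4 FPKM in the mutant, and rescaling all rows gave log2 ratios of −0.51 and −0.24. The ratio of *Sema4d* to *Plxnb1* was 7.43 in the control and 3.09 in the mutant. *Plxna2* was at 5.25 FPKM in control nerves and 9.19 FPKM in mutant nerves (log2 ratio 0.80), *Plxna1* at 5.75 and 8.36 FPKM (log2 ratio 0.53, just short of the cutoff) and *Plxna3* at 3.44 and 3.48 FPKM. *Plxna4*, 1 of the 3 higher plexins, was low, at 0.737 and 1.17 FPKM (log2 ratio 0.60). It was compared only because the mutant reached 1 FPKM, and with a pseudocount of 1 its log2 ratio was 0.32. *Plxnc1*, the receptor of Sema7a, was at 2.72 and 4.31 FPKM (log2 ratio 0.65). After rescaling all rows, *Plxna4* and *Plxnc1* had log2 ratios of −0.005 and −0.004. *Plxnd1*, the endothelial receptor of Sema3e, was at 24.0 FPKM in control nerves and 18.4 FPKM in mutant nerves (log2 ratio −0.38). Both neuropilins stayed within the cutoff with overlapping intervals, *Nrp1* at 12.4 and 15.0 FPKM and *Nrp2* at 11.5 and 11.7 FPKM. The control interval of *Nrp1* ran from 11.8 to 131 FPKM.

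Ephrins and their receptors showed 1 abundant B-type ligand and 1 abundant B-type receptor with lower values in the mutant, while most other members had higher values. *Efnb3*, the transmembrane ephrin of the midline and of myelin, was at 122.2 FPKM in control nerves and 82.8 FPKM in mutant nerves, a log2 ratio of −0.56 that stayed just inside the cutoff on the deposited scale. It passed under each of the 4 other scalings, at −0.61 to −1.23. Its control value lay above its own interval of 112.5 to 118.5, and an unnamed row within its span had 180.5 FPKM in control nerves and 47.8 FPKM in mutant nerves. In contrast, *Efnb1* was at 4.74 FPKM in control nerves and 9.90 FPKM in mutant nerves (log2 ratio 1.05), and *Efnb2*, the arterial ephrin, at 8.92 and 12.9 FPKM (log2 ratio 0.52). The ratio of *Efnb3* to *Efnb2* was 13.7 in the control and 6.44 in the mutant. *Ephb1*, which guides the ipsilateral retinal axons, was the most abundant Eph receptor, at 36.8 FPKM in control nerves and 19.8 FPKM in mutant nerves (log2 ratio −0.89). The other EphB genes had log2 ratios from 0.06 to 0.41 and none passed the cutoff, including *Ephb4*, the venous partner of ephrin-B2, at 9.61 and 12.5 FPKM and the kinase-dead *Ephb6* at 7.71 and 8.05 FPKM. *Ephb2* was at 4.15 and 5.56 FPKM, and *Ephb3* at 3.31 and 3.92 FPKM with overlapping intervals. All 4 were below 0 after rescaling all rows.

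A-type members were all below 10 FPKM. All 5 ephrin-A genes had a higher value in the mutant (median log2 ratio 0.42, but −0.21 after rescaling all rows), beside 54.6% of all genes compared. The cutoff was passed by 2 of the 5, beside 15.4% of all genes compared. *Efna3* was at 0.922 FPKM in control nerves and 2.56 FPKM in mutant nerves, about 60 and 242 fragments (log2 ratio 1.38), and *Efna5*, a repellent of retinal axons in the superior colliculus, at 1.38 and 2.23 FPKM (log2 ratio 0.66). *Efna1*, the most abundant, was at 8.35 and 8.93 FPKM, and *Efna2* and *Efna4* had log2 ratios of 0.41 and 0.42 with overlapping intervals. Of the EphA receptors, *Epha3* was at 4.15 FPKM in control nerves and 8.02 FPKM in mutant nerves (log2 ratio 0.93). *Epha5* was at 0.544 and 1.68 FPKM, about 110 and 491 fragments, a log2 ratio of 1.46, with an unnamed row in its span at 4.64 and 2.31 FPKM. With a pseudocount of 1 its log2 ratio was 0.79, below that of *Efnb1* (0.92). It was compared only because the mutant reached 1 FPKM, as were *Epha7*, *Epha8* and *Efna3*. *Epha8* was at 0.514 and 1.32 FPKM (log2 ratio 1.21). *Epha4*, a receptor that binds A- and B-type ephrins, was at 6.85 and 6.91 FPKM, and *Epha2* at 2.05 and 1.75 FPKM, both with overlapping intervals. *Epha7* was at 0.832 and 1.20 FPKM (log2 ratio 0.48). *Epha10* and *Epha6* stayed below 0.6 FPKM in both libraries, and *Epha1* was listed at 0 in both.

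All 3 Slits were past the cutoff and higher in the mutant on the deposited scale, beside 15.4% of all genes compared. However, *Slit1* and *Slit3* were compared only because the mutant reached 1 FPKM. The 3 Slits had a summed level of 10.6 FPKM in control nerves and 18.1 FPKM in mutant nerves. *Slit2*, on chromosome 5 from 48374394 to 48698008 (mm9), made up most of this, at 9.06 and 14.4 FPKM (log2 ratio 0.66). *Slit3* was at 0.991 and 2.21 FPKM, about 143 and 461 fragments (log2 ratio 1.08), and *Slit1*, which is mainly neuronal, at 0.503 and 1.49 FPKM, about 79 and 337 fragments (log2 ratio 1.40). After rescaling all rows the median of the family was 0.43, and *Slit2* was at −0.007. The main Slit receptor, *Robo1*, was at 9.0 FPKM in control nerves and 14.8 FPKM in mutant nerves (log2 ratio 0.71), so the ratio of *Slit2* to *Robo1* was 1.01 and 0.97. *Robo2* was at 0.614 and 1.10 FPKM (log2 ratio 0.74) and was compared only because the mutant reached 1 FPKM. With a pseudocount of 1 its log2 ratio was 0.38. *Robo4*, the Robo of endothelial cells, went the other way, at 4.73 FPKM in control nerves and 2.28 FPKM in mutant nerves (log2 ratio −1.02). *Robo3*, known from commissural neurons, was near 0, at 0.016 and 0.061 FPKM.

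In the netrin system the main ligand was higher in the mutant, while the abundant receptors had lower values within the cutoff. *Ntn1*, on chromosome 11 from 68022866 to 68200328 (mm9), was at 7.48 FPKM in control nerves and 13.3 FPKM in mutant nerves (log2 ratio 0.82, and 0.15 after rescaling all rows). *Ntn4*, a netrin of basement membranes, was at 2.31 and 2.34 FPKM. *Ntn3* shares its row with *Tbc1d24*, at 8.96 and 9.07 FPKM, so its own level is uncertain. *Unc5b*, known from endothelial cells, was the most abundant of the *Dcc* and *Unc5* genes. It was at 23.6 FPKM in control nerves and 16.0 FPKM in mutant nerves (log2 ratio −0.56), and *Unc5c* at 6.78 and 4.89 FPKM (log2 ratio −0.47). Neither passed the cutoff on the deposited scale, but *Unc5b* did under each of the 4 other scalings, at −0.60 to −1.22, and *Unc5c* after rescaling all rows (−1.11). *Unc5a* was at 1.19 and 1.55 FPKM with overlapping intervals, and *Unc5d* at 0.09 and 0.268 FPKM. *Dcc*, the attractive receptor, was below 1 FPKM in both libraries, at 0.916 and 0.831 FPKM with overlapping intervals. *Unc5b* was 25.7 times as abundant as *Dcc* in the control and 19.3 times in the mutant.

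**Figure D3:**
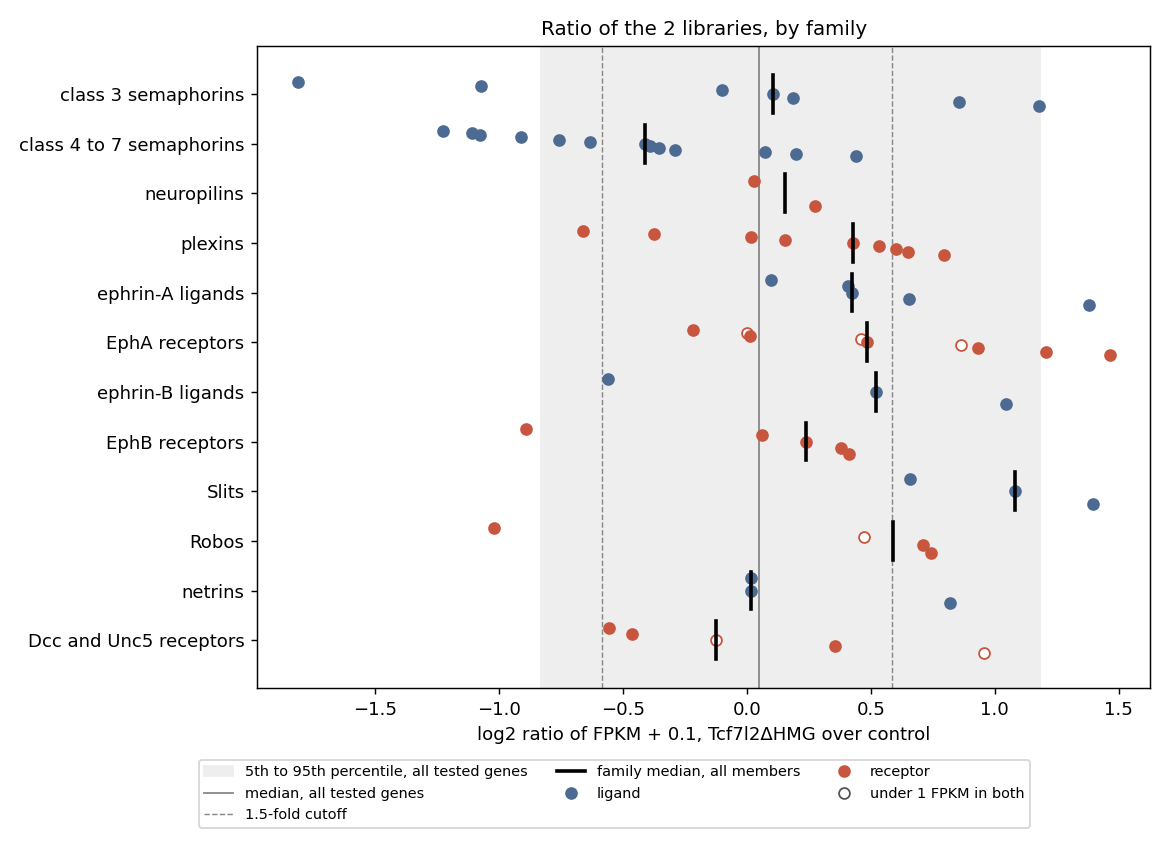
Log2 ratio (Tcf7l2ΔHMG over control, FPKM + 0.1) of each of the 68 genes, in rows by family, with the family median over all its members as a black bar. Ligands are blue and receptors red. Open circles are genes under 1 FPKM in both libraries. On the deposited scale and with open circles counted, class 4 to 7 semaphorins have the lowest median (−0.41) and Slits the highest (1.08). Without open circles *Dcc* and the *Unc5* genes are lowest (−0.47). Rescaling all rows lowers every family. Over compared genes alone it gives −1.06 for class 4 to 7 semaphorins, −1.11 for *Dcc* and the *Unc5* genes and 0.43 for Slits.

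Side by side and on the deposited scale, family medians over all members ran from −0.41 for class 4 to 7 semaphorins and −0.13 for *Dcc* and the *Unc5* genes (−0.47 over its 3 compared genes, which is then the lowest family) to 0.59 for Robos and 1.08 for Slits. Class 3 semaphorins (0.11), neuropilins (0.15) and netrins (0.02) lay near the median of all genes compared (0.05). Plexins (0.43), ephrin-A ligands (0.42), EphA receptors (0.48), ephrin-B ligands (0.52) and EphB receptors (0.24) lay above it. After rescaling all rows, and over compared genes alone, only Slits (0.43), EphA receptors (0.08) and Robos (0.04) had a median above 0. On the deposited scale, with 1 FPKM required in both libraries, the Robo median turned to −0.15 and the EphA median was 0.011. The medians of small families rest on few genes, and differences between families were not tested. The 34 ligands summed to 650.1 FPKM in control nerves and 487.1 FPKM in mutant nerves (74.9% of the control), and the 34 receptors to 316.7 and 294.4 FPKM (92.9%).

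**Figure D4:**
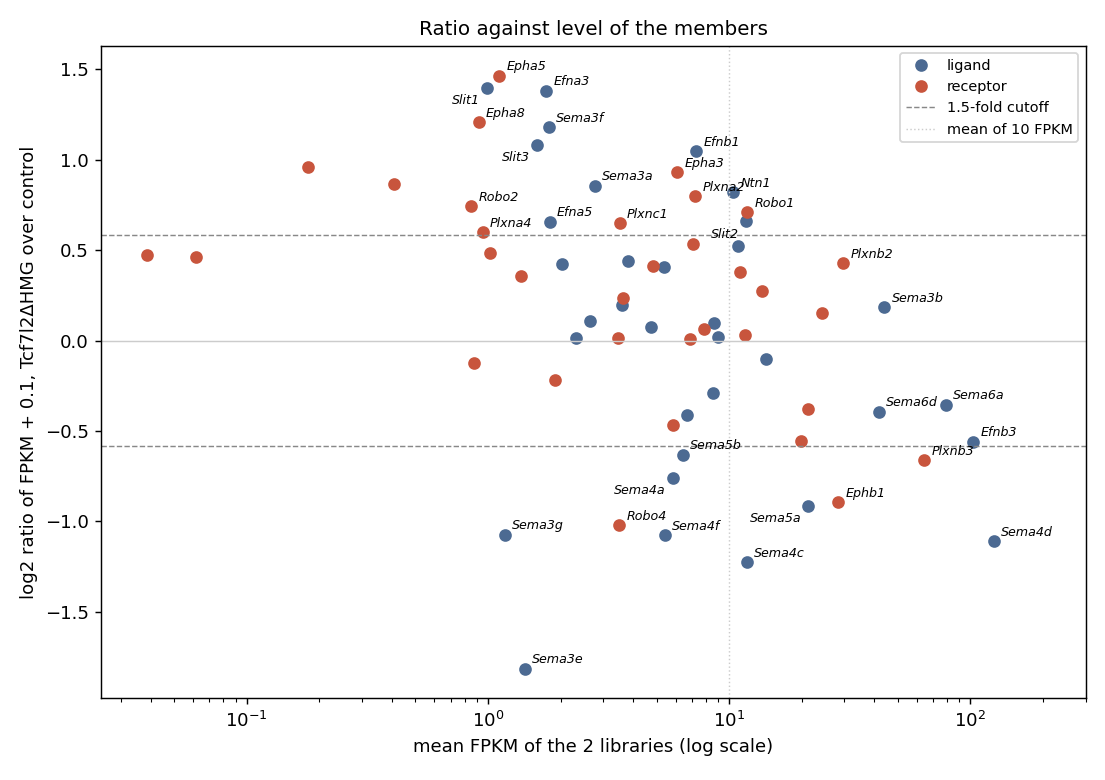
Log2 ratio (Tcf7l2ΔHMG over control, FPKM + 0.1) against the mean FPKM of both libraries (log axis) for the genes with a mean above 0, ligands in blue and receptors in red. Named points are compared genes past a fold change of 1.5 (dashed lines) or at a mean of at least 25 FPKM. On the deposited scale, 7 of the 10 most abundant genes lie below 0, and most genes under 10 FPKM (dotted line) lie above it. The 21 genes at a mean of at least 10 FPKM are split, with 11 below and 10 above 0. Of all genes compared, 45.4% lie below 0 and 54.6% above it.

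The level of a gene and its direction were set side by side without a test. Of the 10 with the highest mean FPKM, 7 had a lower value in the mutant (*Sema4d*, *Efnb3*, *Sema6a*, *Plxnb3*, *Sema6d*, *Ephb1* and *Sema5a*) and *Sema3b*, *Plxnb2* and *Plxnb1* a higher one. Of all genes compared, at any level, 45.4% had a lower value. The sum of the 10 was 662.4 FPKM in control nerves and 458.4 FPKM in mutant nerves. Of the 21 genes with a mean of at least 10 FPKM, 5 were lower and 3 higher past the cutoff, beside 7.42% and 11.2% of all genes at that level, and the signs were split, with 11 below and 10 above 0. Of 41 compared genes under 10 FPKM, 6 were lower and 14 higher, beside 9.62% and 19.6% of all genes at that level. In 10 of these 41 genes only 1 library reached 1 FPKM, so 7 of the 14 and 2 of the 6 were compared only through the library where they were high. Among the 31 with 1 FPKM in both libraries, a count added after seeing the data, 4 were lower and 7 higher, beside 7.65% and 14.1% of all such genes.

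Beyond the 68 genes, 84 other genes of these pathways were listed from textbook knowledge, with earlier results of these data known, and 76 were compared. Past the cutoff, 11 were higher (14.5%) and 8 lower (10.5%), near the 15.4% and 8.52% of all genes. Among co-receptors and other receptors, *L1cam* and *Nrcam*, adhesion molecules that pair with neuropilins, were higher (log2 ratios 0.89 and 0.84), as was *Flrt3* (0.83). *Nfasc*, a cell adhesion molecule of nodes and paranodes, was lower, at 497.1 FPKM in control nerves and 254.8 FPKM in mutant nerves (log2 ratio −0.96). Among other cues and their receptors, *Draxin*, a Dcc ligand, was lower (log2 ratio −0.65), and *Ntn5* (1.53) and the Shh receptor *Boc* (0.83) were higher. Among 52 intracellular effectors, 6 were higher and 6 lower. Lower were *Fyn*, the kinase downstream of netrin and semaphorin receptors, at 204.2 and 132.0 FPKM (log2 ratio −0.63), *Mical3* (−0.93), the collapsin response mediator *Dpysl4* (−0.76), the actin regulator *Cfl2* (−0.69), *Pak1* (−0.60) and *Tiam1* (−0.60). Higher were the ephexin *Ngef* (1.03), *Mical2* (0.77), the Ena/VASP protein *Evl* (0.75), *Nfatc4* (0.62) and *Kalrn* (0.60). *Farp2*, a plexin-A effector, was listed at 0 in the control and at 2.94 FPKM in the mutant.

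Markers of the cell types of the nerve also differed between the libraries, and their part in the values above was not tested. Their counts past the cutoff stand beside 15.4% higher and 8.52% lower of all genes compared. *Pdgfra* is in both the OL precursor and meningeal fibroblast lists, and *Cspg4* in both the OL precursor and pericyte lists. The summed level of 10 OL markers was 31707 FPKM in control nerves and 18155 FPKM in mutant nerves. That of 8 OL precursor markers was 632.5 and 498.2 FPKM, with 3 lower and none higher past the cutoff. The lower ones were *Gpr17*, at 235.0 and 155.8 FPKM and thus a large part of the sum, *Neu4* and *Vcan*. *Pdgfra* differed little (log2 ratio −0.09) and *Ptprz1* had a higher value in the mutant (0.36). Of 8 endothelial markers, 2 were lower and 1 higher, and their sum was 171.9 and 140.4 FPKM. The higher one was *Cdh5* (log2 ratio 0.59). Members known from vessels had lower values (*Robo4*, *Sema3g*, *Plxnd1* and *Unc5b*) or higher ones (*Efnb2* and *Ephb4*). Of 8 meningeal fibroblast markers, 4 were higher and none lower, with a sum of 970.7 and 1386 FPKM. Of 8 neuronal markers, 6 were compared and 4 were higher, with a sum of 31.1 and 44.7 FPKM, so they were low in both libraries. Astrocyte markers summed to 5116 and 6048 FPKM, with 1 of 8 higher, and microglial markers to 241.7 and 319.0 FPKM, with none of 8 past the cutoff. Pericyte and smooth muscle markers summed to 117.7 and 134.9 FPKM, with 1 higher and 1 lower and a median log2 ratio of −0.04. The higher one, *Tagln*, was listed at 0 in the control and at 35.3 FPKM in the mutant, more than the difference between the sums. All 4 red blood cell markers were higher, with a sum of 162.9 and 402.7 FPKM. None of the marker genes was at 0 in both libraries.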

How the data were processed

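RNA-seq of P12 optic nerves was analysed, 1 library per genotype. The authors mapped reads with TopHat (mm9 per the submitters' processing notes) and deposited gene FPKM values with intervals from Cufflinks. Tool versions are not given in the sources used here. Gene FPKM is set by the transcripts assembled at a locus, so overlapping genes and unnamed rows can share fragments, and 4 of the 68 genes share a row with another gene in at least 1 library.

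Merged names were split, FPKM was summed per symbol, and only symbols whose rows all had status OK were compared. Ratios were log2 of FPKM + 0.1, for genes with at least 1 FPKM in at least 1 library, and a fold change past 1.5 was counted. With 1 library per genotype no test was run. Depth was derived from interval bounds that are whole fragment numbers (99.5% and 99.9% within 0.02, on unnamed rows of under 100 bases). Intervals cover counting and assignment error only. The code was tested on simulated data. Every gene was accounted for, with values for those among the 3 highest of a family, past the cutoff or nearest to it. Members, gene lists and rules were chosen with earlier results of these data known. Alternatives were other pseudocounts (0.01 and 1), filters, scalings, row rules and fold cutoffs. Promoter windows came from RefSeq (GRCm38.p6) by symbol, and no coordinate was converted. Python 3.11.15, pandas 2.3.3, numpy 2.4.6 and matplotlib 3.10.9 were used.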

Additional observations from a re-analysis of the deposited data

How the results depend on the processing

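Rescaling all rows of each library to the same sum changed the results most. Of the 62 genes 3 were higher and 27 lower, with a median log2 ratio of −0.50. Of 76 compared genes of the pathway list 2 were higher and 36 lower. Of all 14199 genes compared 640 were higher and 7398 lower, with a median of −0.61. Family medians were then −0.52 for class 3 and −1.06 for class 4 to 7 semaphorins, −0.24 for plexins, −0.21 for ephrin-A ligands, 0.076 for EphA receptors, −0.14 for ephrin-B ligands, −0.41 for EphB receptors, 0.43 for Slits, 0.045 for Robos, −0.61 for netrins and −1.11 for *Dcc* and *Unc5* genes. Of the genes past the cutoff on the deposited scale, *Plxna4* (−0.0048), *Plxnc1* (−0.0039) and *Slit2* (−0.0067) changed direction. Many genes within the cutoff also went from above to below 0, such as *Plxnb2* (0.43 to −0.24) and *Sema4b* (0.44 to −0.21). The median of all genes moves by construction of this scale.

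Requiring 1 FPKM in both libraries gave 10 higher and 9 lower genes, beside 1608 and 953 of 13195 over all genes. Medians were 0.29 for plexins, 0.011 for EphA receptors, 0.66 for Slits and −0.15 for Robos, since fewer genes were compared. Requiring 5 FPKM in at least 1 library left 37 genes, with 6 higher and 8 lower and a median of 0.018. Over all genes 1290 of 10535 were then higher and 889 lower. Of the pathway list 6 were higher and 7 lower. Medians with this filter were −0.69 for class 4 to 7 semaphorins, 0.29 for plexins and 0.66 for Slits. Without a filter the median of *Dcc* and *Unc5* genes was −0.13. A pseudocount of 1 gave medians of 0.69 for Slits and 0.38 for Robos. A fold change of 2 left 7 higher and 6 lower genes, beside 6.87% and 3.68% of all genes compared. It left 3 higher and 0 lower genes of the pathway list, where no test was run. No paired analysis was possible because each genotype has 1 library. Differences between animals cannot be separated from genotype here.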
